A study of Mus musculus with 56 samples.

Results

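Ribosome footprints of mouse liver labelled 32 months were set against footprints of mouse liver labelled 3 months, which compares, by the labels, the oldest mice of the study with young adults. The comparison holds 6 of the 56 libraries of the series, 3 with each label, chosen by tissue, assay and age label. The other 12 liver footprint libraries, with 3 at each of the other ages, entered the fit only to share its estimate of the spread between libraries. The libraries of both groups came from C57BL/6 mice with no treatment, transgene or other manipulation named in the labels, which also give no sex. The study's own account gives 2 animals of 32 months but 3 libraries have this age, so some may share an animal, and p-values measure the spread between libraries, which may in part be technical.

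Ribosome profiling sequences the short stretches of mRNA that ribosomes shield from nuclease, so a footprint count rises with the amount of a transcript and with the number of ribosomes on it, and the counts used here do not separate the 2. Most of the liver's mass is hepatocytes, which make plasma proteins, bile acids and urea and which handle fats, sugars and drugs. Kupffer cells (the resident macrophages), endothelium, stellate cells and passing leukocytes make up the rest. In rodents many hepatocyte genes follow the pulses of growth hormone, which differ between the sexes, and the major urinary proteins, small lipocalins that are secreted into urine and carry pheromones, are the best known of these. Levels below are in CPM, a gene's counts relative to all counts of its library, scaled by TMM, a factor per library that evens out differences in composition, and they compare libraries for 1 gene, not genes with each other.

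Total counts of the liver footprint libraries ran from 7985755 to 26921222. The albumin gene Alb was at 23466 to 127979 CPM over all 18, while Kap, a kidney tubule gene, reached at most 13.2 CPM, so the libraries carried the marker of their labelled tissue. Xist reached at most 0.082 CPM and the Y-linked Ddx3y was at 27.8 to 91.3 CPM in all 18. The age labels are in doubt. H19, an RNA of fetal and newborn liver, was at 10.4 to 22.7 CPM in the 3 libraries titled 10m, whose age field says 11 months, against at most 0.41 CPM in those labelled 1 month. Ighm, the antibody heavy chain that accumulates as mice mature, was at 3.95 to 6.65 CPM in the libraries titled 10m and at 3.73 to 7.79 CPM in those labelled 1 month. In the compared groups, H19 was at 1.49, 1.44 and 0.748 CPM with the 3 months label and at 0.177, 0.117 and 0.405 CPM with the 32 months label. Ighm was at 619, 125 and 25.3 CPM with the 3 months label and at 84.1, 77.3 and 211 CPM with the 32 months label. For that reason the groups are called by their labels throughout.

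One library, the first of those labelled 3 months, was unlike the rest. Its median correlation with the other 17 across genes was 0.904, where no other library was under 0.945, and it was the highest or the lowest of the 18 libraries in 5480 of 13608 genes tested (40.3%). It had the lowest Alb level of all 18 (23466 CPM) and the highest Ighm level (619 CPM). Lyz2, the lysozyme of macrophages and neutrophils, was also highest there (522 CPM). Many results are therefore given with and without it. Pairs of libraries labelled 32 months had correlations of 0.960, 0.963 and 0.981, against 0.963, 0.915 and 0.967 for pairs labelled 3 months. Libraries 2 and 3 labelled 32 months were the closest pair of either group (0.981), although they still differed by more than sampling noise.

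No gene passed the test between the groups. Of 13608 genes tested, edgeR's quasi-likelihood test called 0 at an adjusted p under 0.05, with a smallest adjusted p of 0.0667. At an unadjusted p under 0.05 there were 946 higher (6.95%) and 1650 lower (12.1%) in the libraries labelled 32 months. DESeq2, run as an alternative, gave 831 calls (6.11%), 207 higher (1.52%) and 624 lower (4.59%). Without library 1 labelled 3 months, edgeR again called 0 (smallest adjusted p 0.252), with 581 higher (4.27%) and 680 lower (5.0%) before adjustment (9.27% either way). DESeq2 then gave 57 calls (0.419%), 35 higher (0.257%) and 22 lower (0.162%), of which 53 were also called with that library and in the same direction. The count of edgeR calls was 2004 (14.7%), 615 higher (4.52%) and 1389 lower (10.2%), when library 3 labelled 3 months was left out in its place, and 39 without library 1 labelled 32 months, so the number of calls rested on single libraries. The 3 levels labelled 32 months lay all above the 3 labelled 3 months in 959 genes (7.05%) and all below in 942 (6.92%). Without library 1 labelled 3 months these counts were 1374 (10.1%) and 1255 (9.22%).

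**Figure D1:**
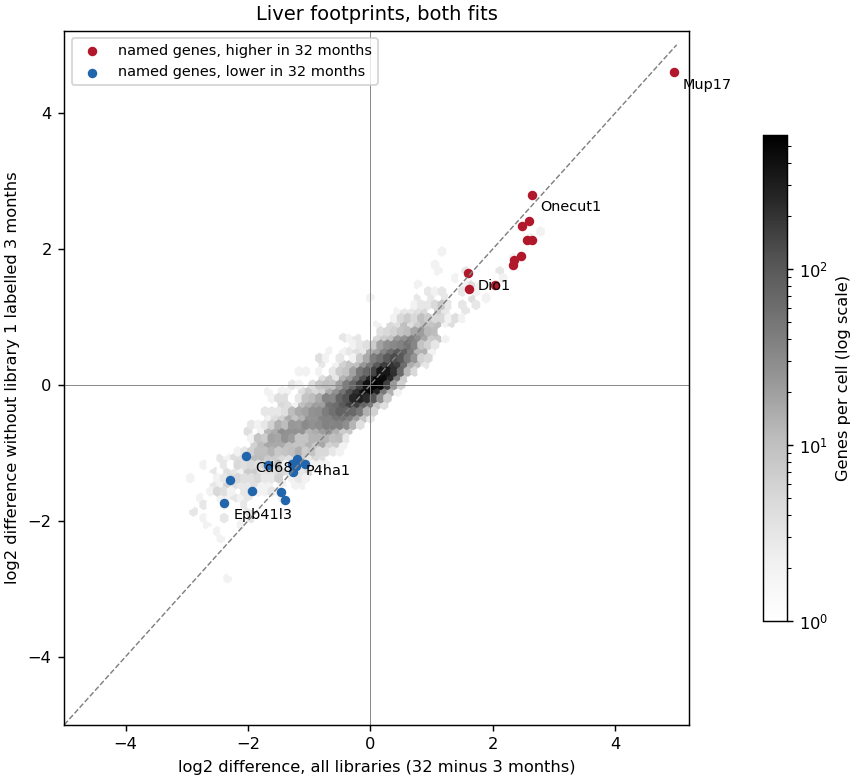
Log2 difference (32 minus 3 months, by label) of each gene tested with all libraries (horizontal axis) and without library 1 labelled 3 months (vertical axis), with darker cells holding more genes; coloured points are the 24 genes named by rule and the dashed line marks equal values. The sign was the same in both fits for 83.3% of genes, and the median absolute difference was 0.255 with all libraries and 0.198 without library 1.

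Genes are named below by a rule: a mean of at least 10 CPM over the 6 libraries, no overlap between the groups, and the same sign with and without library 1 labelled 3 months, which left 628 genes higher and 416 lower. The 12 with the largest difference each way, ranked by the smaller of both fits, are described. Their lack of overlap was required by the rule and supports nothing. Gene lists are described by their median, which depends on the scaling: with library size only in place of TMM the median of all genes tested was −0.154, and 7 of the 51 lists, all with TMM medians from 0.012 to 0.125, had medians of the opposite sign. They are the growth hormone, circadian clock, complement and coagulation, heat shock, iron and heme, proteasome and translation factor lists.

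The major urinary proteins led the genes that were higher at 32 months by label, and 5 of those 12 genes belong to this family, whose copies lie in a cluster on chromosome 4. To show how alike the copies are, a stretch upstream of 3 of them is printed, 5′ to 3′ on the minus strand of GRCm38.p6, from RefSeq's promoter windows (250 bases before to 50 after each gene's start). Capitals mark the motif AATCAAT, the core that ONECUT factors bind, searched for on both strands (as AATCAAT or ATTGATT, with overlapping matches counted). They cover chr4:61595963-61596064 for Mup17, chr4:61304083-61304184 for Mup14 and chr4:60070477-60070578 for Mup7.
Mup17: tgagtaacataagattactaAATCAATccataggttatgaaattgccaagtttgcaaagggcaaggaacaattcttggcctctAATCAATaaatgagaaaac
Mup14: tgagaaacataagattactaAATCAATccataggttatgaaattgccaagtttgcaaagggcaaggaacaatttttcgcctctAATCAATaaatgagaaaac
Mup7: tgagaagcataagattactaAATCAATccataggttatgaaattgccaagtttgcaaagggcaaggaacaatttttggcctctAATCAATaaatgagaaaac

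Over these 102 bases Mup17 was identical to Mup14 and to Mup7 at 99 positions (97.1%), and Mup14 to Mup7 at 100 (98.0%). Both matches stand 63 bases apart in each. In RefSeq's table all 14 Mup windows held the motif and 11 held it at least 2 times, while 938 of 32851 windows (2.86%) held it and 56 (0.17%) held it at least 2 times. The motif was chosen after the values of Onecut1 had been seen, and copies of 1 gene share their sequence by descent, so the matches are not separate observations. A match describes these letters and shows no binding.

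Of 22 Mup genes, 18 passed the filter on low counts and all 18 had positive log2 differences, with a median of 2.04, against 0.0102 over all genes tested. Without library 1 labelled 3 months the median was 1.51, against −0.00927 over all genes. At an unadjusted p under 0.05, 11 were higher, against 6.95% of all genes, and 10 without library 1, against 4.27%. The groups did not overlap in 12, against 7.05% of all genes. Near-identical copies share reads, so how the counts split among them is uncertain. DESeq2 called 6 with all libraries and 1, Mup17, without library 1.

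Mup17 had the largest difference of the named genes. It was at 172, 458 and 141 CPM in the libraries labelled 32 months, against 3.64, 6.00 and 15.5 CPM in those labelled 3 months. The log2 difference was 4.95 ± 0.93 (SE, edgeR adjusted p = 0.0667), and 4.60 ± 1.15 (SE, adjusted p = 0.292) without library 1. The whole of the older-labelled group stood far above the younger-labelled one, and libraries 1 and 2 labelled 3 months held the lowest levels. The gene spans chr4:61591929-61595865 in GRCm38.p6, the assembly behind the mm10 build that the submitters' processing notes name.

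The next members were less far apart, and library 1 labelled 3 months was the lowest of the 6 in each. Mup14 was at 329, 237 and 189 CPM at 32 months by label, against 6.61, 40.1 and 74.8 CPM at 3 months. Mup7 was at 771, 624 and 489 CPM in the libraries labelled 32 months and at 4.25, 71.4 and 299 CPM in those labelled 3 months. Mup1 was at 34, 44 and 25.2 CPM with the 32 months label, against 0.205, 5.65 and 13.1 CPM with the 3 months label. In Mup12 the levels were 110, 158 and 100.2 CPM at 32 months and 1.23, 21.8 and 66.8 CPM at 3 months. The log2 differences of these 4 ran from 2.04 to 2.64, and from 1.47 to 2.13 without library 1. The most abundant member showed no such separation: Mup3 was at 3512, 5240 and 4111 CPM in the libraries labelled 32 months, against 359, 1408 and 4964 CPM in those labelled 3 months. The summed level of the family therefore overlapped, at 7269, 9571 and 7170.4 CPM with the 32 months label and 1049.7, 2286 and 8036 CPM with the 3 months label.

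**Figure D2:**
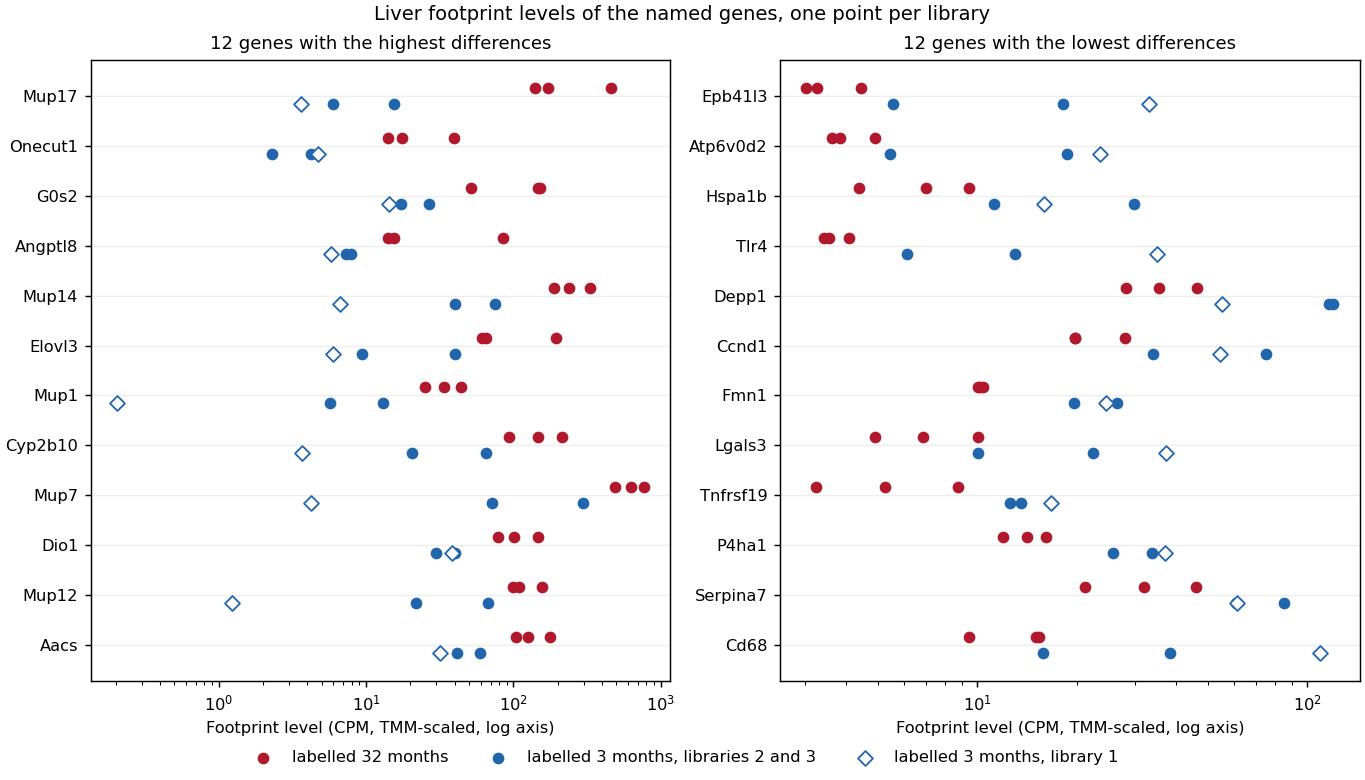
TMM-scaled CPM (log axis) of the 24 genes named by rule, 1 point per library, with the libraries labelled 32 months drawn above those labelled 3 months and library 1 labelled 3 months as an open diamond. Library 1 labelled 3 months is the lowest point in every Mup gene shown but lies among the others of its label in Dio1 and Fmn1.

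Male-biased liver genes had mostly positive differences and female-biased ones mostly negative, while the summed levels of both lists overlapped between the groups. Of 27 male-biased genes, 25 had positive differences (median 0.94, and 0.47 without library 1 labelled 3 months). Of these 27, 9 were higher at an unadjusted p under 0.05, against 6.95% of all genes, and 7 did not overlap, against 7.05%. The male-biased list includes Mup genes, Mup17 and Mup1 among them, and was not counted without them. Of 21 female-biased genes tested (26 listed), 10 were lower at an unadjusted p under 0.05, against 12.1% of all genes, and 1 was higher, with a median of −0.75 that was further from 0 without library 1 (−1.14). Slc22a26, a transporter of the organic anion family, was at 1.12, 7.11 and 4.15 CPM in the libraries labelled 32 months and at 27.4, 42.2 and 4.86 CPM in those labelled 3 months. Library 3 labelled 3 months overlapped the older label there, as it did for Slc22a27, a gene of the same family. The male-biased total rested on that library too. It was 20777, 20348 and 15159 CPM with the 32 months label, against 3501, 7505 and 22742 CPM with the 3 months label. The female-biased total overlapped between the groups, at 291, 548 and 502 CPM with the 32 months label and 449.6, 563 and 334 CPM with the 3 months label.

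Elovl3, an elongase of long-chain fatty acids with male-biased expression in mouse liver, was at 196, 61.7 and 65.6 CPM in the libraries labelled 32 months, against 5.94, 9.39 and 40.4 CPM in those labelled 3 months. Its log2 difference was 2.55 ± 0.62 (SE, edgeR adjusted p = 0.0667), and 2.12 ± 0.65 (SE, adjusted p = 0.366) without library 1. Library 1 labelled 32 months and library 3 labelled 3 months were the high ones of their groups.

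Onecut1, a homeodomain factor of hepatocytes and bile duct cells also called HNF6, was at 17.5, 39.4 and 14.2 CPM in the libraries labelled 32 months, against 4.71, 4.25 and 2.31 CPM in those labelled 3 months. The difference was 2.63 ± 0.57 log2 (SE, edgeR adjusted p = 0.0667) with all libraries and 2.79 ± 0.71 (SE, adjusted p = 0.292) without library 1, so it did not rest on that library. The growth hormone, STAT5 and IGF list, which includes Onecut1, had a median of 0.12 over 18 genes, and −0.0069 with library size only. Of these, 4 were higher and 2 lower at an unadjusted p under 0.05, against 6.95% and 12.1% of all genes. Jak2, the kinase on the growth hormone receptor, was at 10.2, 13.8 and 12.9 CPM with the older label and at 29.8, 19.7 and 14.6 CPM with the younger one.

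Of the genes named by the rule, Dio1 and Serpina7 act on thyroid hormone, and they lay in opposite directions. Dio1 (chr4:107291465-107307168), the deiodinase that makes active thyroid hormone from thyroxine, was at 79.2, 148 and 102 CPM in the libraries labelled 32 months, against 38.5, 29.6 and 40.5 CPM in those labelled 3 months. It had the smallest unadjusted p of the named genes, 6e-06, with a log2 difference of 1.6 ± 0.25 (SE, edgeR adjusted p = 0.0667). Without library 1 the difference was 1.64 ± 0.28 (SE, adjusted p = 0.252), and DESeq2 called it in both fits (adjusted p = 3.25e-06 and 0.000106). Serpina7, the thyroxine-binding globulin of plasma, lay the other way, at 32.0, 45.9 and 21.1 CPM with the older label and 61.4, 85.1 and 60.8 CPM with the younger one. The library that stands apart was between the others in both genes.

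The 27 genes of fatty acid synthesis and lipid droplets had a median of 0.24, and 0.11 without library 1, with 20 positive and 7 negative. Of these, 5 were higher and 1 lower at an unadjusted p under 0.05, against 6.95% and 12.1% of all genes, and 2 did not overlap, both higher, against 7.05%. Scd1, the desaturase that makes oleate and the most abundant member, was at 11610, 7078 and 7602 CPM in the libraries labelled 32 months and at 10151, 13771 and 8426 CPM in those labelled 3 months, so the groups overlapped. G0s2, an inhibitor of the lipase that starts triglyceride breakdown, is not a member of this list. It was at 51.9, 152 and 147 CPM in the libraries labelled 32 months, against 14.4, 17.2 and 26.9 CPM in those labelled 3 months. The log2 difference of G0s2 was 2.58 ± 0.51 (SE, edgeR adjusted p = 0.0667), and 2.41 ± 0.62 (SE) without library 1. Plin5 and Plin2 coat lipid droplets. Plin2 was at 259, 328 and 377 CPM at 32 months by label and at 248, 197 and 182 CPM at 3 months. Plin5 was at 38.1, 122 and 166 CPM with the older label, against 26.8, 23.4 and 47.7 CPM with the younger one, so 1 library overlapped. Of the 5 fat tissue markers listed, 4 were near 0 in all 6 libraries, with Adipoq (adiponectin) at no more than 0.117 CPM, Plin1 at no more than 0.583 CPM, Retn (resistin) at no more than 0.233 CPM and Lep (leptin) with 0 counts. Plin4, another coat protein of lipid droplets, was not: it was at 1.36, 27.6 and 39.7 CPM with the older label and at 18.8, 7.57 and 4.30 CPM with the younger one, and at most at 9.90 CPM in the other 12 liver footprint libraries. Enzymes of the exocrine pancreas stood above 2 CPM in library 1 labelled 32 months alone.

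Angptl8, a secreted protein that restrains lipoprotein lipase and is made after meals, was at 85.6, 15.4 and 14.2 CPM in the libraries labelled 32 months and at 5.79, 7.85 and 7.29 CPM in those labelled 3 months, so library 1 labelled 32 months carried most of its mean. Aacs, which activates acetoacetate for lipid synthesis, was at 176, 125 and 104 CPM with the older label, against 32.0, 59.4 and 41.7 CPM with the younger one. Both genes were thus apart in every library. Cholesterol synthesis lay the other way in 19 of 22 genes (median −0.48, and −0.60 without library 1). Of these 22, 1 was lower at an unadjusted p under 0.05, against 12.1% of all genes. The groups did not overlap in 2, both lower, against 6.92%. Without library 1 these counts were 3, against 5.0%, and 6, against 9.22%.

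Fatty acid oxidation and PPARA target genes had positive differences in 33 of 33 genes, with a median of 0.40, and 0.18 without library 1 labelled 3 months. Of these, 8 were higher at an unadjusted p under 0.05, against 6.95% of all genes, and 4 without library 1, against 4.27%. The groups did not overlap in 4, against 7.05% of all genes. Cpt2, the inner carnitine palmitoyltransferase of mitochondria, was at 141, 186 and 188 CPM in the libraries labelled 32 months and at 67.8, 108 and 141 CPM in those labelled 3 months. Cyp2b10, a cytochrome P450 that drugs induce through the receptor CAR, was at 92.9, 148 and 212 CPM at 32 months by label, against 3.69, 20.5 and 65.2 CPM at 3 months. The 38 drug-metabolizing enzymes as a list, which does not include Cyp2b10, had a median of 0.33, and 0.04 without library 1. Nr1h4, the bile acid receptor FXR, was at 132, 135 and 125 CPM with the older label and at 60.5, 81.9 and 101 CPM with the younger one.

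Among the genes that were lower at 32 months by label, several mark macrophages. Footprints of bulk tissue do not tell fewer cells of a type from less RNA per cell. Tlr4, the receptor for bacterial lipopolysaccharide, is not a member of the macrophage marker lists. It was at 3.43, 4.08 and 3.54 CPM in the libraries labelled 32 months, against 35.0, 13 and 6.11 CPM in those labelled 3 months. The difference was −2.30 ± 0.45 log2 (SE, edgeR adjusted p = 0.0667) with all libraries and −1.41 ± 0.31 (SE, adjusted p = 0.252) without library 1. Cd68, a lysosomal glycoprotein of macrophages, was at 15, 9.44 and 15.4 CPM with the older label and at 109, 38.4 and 15.8 CPM with the younger one, so library 3 labelled 3 months all but met the older group. Lgals3, the lectin galectin 3, was at 6.86, 4.90 and 10.01 CPM with the older label, against 37.2, 22.4 and 10.03 CPM with the younger one, with the same near contact in library 3. Atp6v0d2, a subunit of the proton pump of lysosomes, was at 4.91, 3.61 and 3.84 CPM in the older-labelled libraries, against 23.6, 18.7 and 5.42 CPM in the younger-labelled ones.

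The list of Kupffer cell and macrophage markers showed the same spread within the 3 months label. Of 24 Kupffer cell and macrophage markers, 23 had negative differences (median −1.45) and 22 were lower at an unadjusted p under 0.05, against 12.1% of all genes, but without library 1 the median was −0.71 and 9 were lower, against 5.0%. Only 1 of the 24, Cd68, did not overlap between the groups. Timd4, a phosphatidylserine receptor of resident Kupffer cells, was at 6.27, 3.38 and 7.28 CPM with the older label and at 64.0, 26.5 and 6.6 CPM with the younger one. The summed level of the list was 1635, 1067 and 1885 CPM in the libraries labelled 32 months, against 6722, 3151 and 1271 CPM in those labelled 3 months, while the other 12 liver footprint libraries ran from 872 to 1833 CPM. Libraries 1 and 2 labelled 3 months were thus above the other 16, and library 3 was within their range. The 14 lipid-associated and activated macrophage markers, Lgals3 and Atp6v0d2 among them, had a median of −1.06, and −0.65 without library 1. Of these, 8 were lower at an unadjusted p under 0.05, against 12.1% of all genes. Their summed level ran the other way within the 3 months label, at 9014, 10538 and 13103 CPM in libraries 1 to 3. With the 32 months label it was 13527, 12930 and 14631 CPM. Apoe, the most abundant member, was higher without overlap.

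Other leukocyte lists also had medians nearer to 0 without library 1. The 8 neutrophil markers tested, of 16, had a median of −2.87 with all libraries and −0.49 without it. For 10 monocyte markers the medians were −1.62 and −0.28, and for 20 B and plasma cell markers −0.95 and −0.31. For 19 T and NK cell markers, of 22 listed, they were −1.24 and −0.67, and for 11 genes of MHC class II and dendritic cells, of 13 listed, −1.34 and −0.99. None of the members of these 5 lists was free of overlap, and library 3 labelled 3 months had summed levels below all 3 libraries labelled 32 months both for neutrophils (60.0, 20.3 and 49.96 CPM with the 32 months label, against 15.9 CPM) and for T and NK cells (20.3, 19.2 and 24.7 CPM with the 32 months label, against 11.0 CPM). Lcn2, a siderophore-binding protein of neutrophils and of stressed hepatocytes, showed the spread: it was at 40.4, 15.9 and 40.9 CPM with the older label and at 503, 268 and 11.2 CPM with the younger one. Hepatocyte markers lay the other way in library 1, with summed levels of 137692, 144163 and 137607 CPM with the 32 months label, against 74140 CPM in that library and 120059 and 153512 CPM in libraries 2 and 3 of its label. The part of the cell mixture in these differences was not tested.

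**Figure D3:**
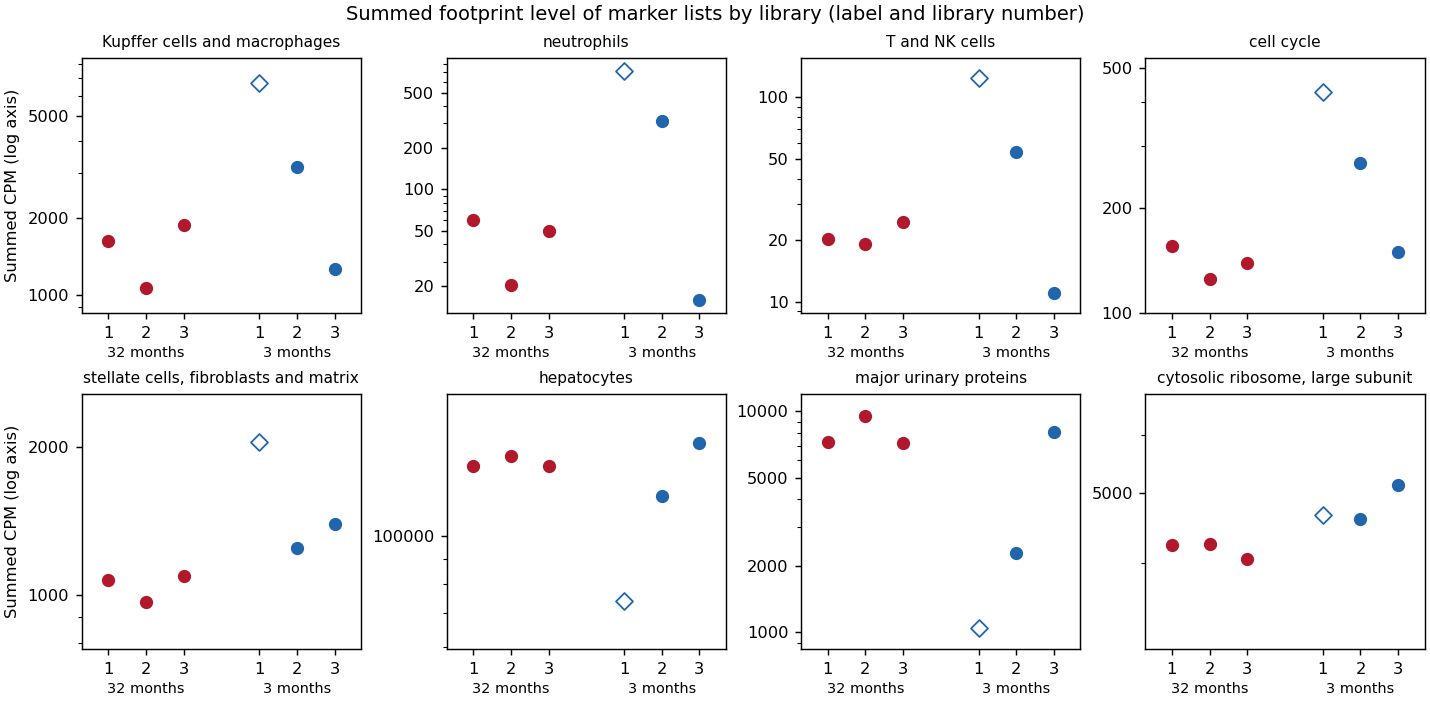
Summed TMM-scaled CPM (log axis) of 8 marker lists in each library, with the 3 libraries labelled 32 months left of the 3 labelled 3 months and library 1 labelled 3 months as an open diamond. In the younger label, Kupffer cell and macrophage, neutrophil, and T and NK cell lists are highest in library 1 and lowest in library 3. Hepatocyte markers lie the other way. The large ribosomal subunit is lower in all 3 older-labelled libraries than in any younger-labelled one.

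Matrix genes were lower at 32 months by label, some of them without overlap. Of 27 stellate cell, fibroblast and matrix genes tested (28 listed), all had negative differences, with a median of −0.73, and −0.40 without library 1. With all libraries, 18 were lower at an unadjusted p under 0.05, against 12.1% of all genes, and 5 without library 1, against 5.0%. The groups did not overlap in 10, against 6.92% of all genes. Fbln2, a glycoprotein of elastic fibres, was at 2.42, 2.45 and 2.83 CPM in the libraries labelled 32 months, against 12, 7.54 and 4.24 CPM in those labelled 3 months. P4ha1, the catalytic subunit of the enzyme that hydroxylates collagen prolines, is not a member of this list. It was at 11.9, 14.1 and 16.2 CPM with the older label and at 37.0, 25.8 and 33.9 CPM with the younger one. The log2 difference of P4ha1 was −1.20 ± 0.19 (SE, edgeR adjusted p = 0.0667) with all libraries and −1.09 ± 0.21 (SE, adjusted p = 0.252) without library 1, and DESeq2 called it both times (adjusted p = 6.52e-05 and 0.00541). All 3 younger-labelled libraries stood clear of the older ones in P4ha1 (chr10:59323197-59373304).

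Cell cycle genes were lower with the older label. Of 34 genes, all had negative differences (median −1.58, and −0.85 without library 1), 27 were lower at an unadjusted p under 0.05, against 12.1% of all genes, and 12 without library 1, against 5.0%. The groups did not overlap in 9, against 6.92%. The summed level was 155, 125 and 139 CPM with the older label, against 427, 268 and 149 CPM with the younger one. Library 3 labelled 3 months was thus inside the older-labelled range, and the other 12 liver footprint libraries ran from 122 to 480 CPM. Mki67, a protein of dividing cells, was at 1.36, 1.17 and 2.02 CPM in the libraries labelled 32 months, against 38.9, 7.71 and 2.31 CPM in those labelled 3 months. Ccnd1, cyclin D1, which drives entry into the cycle, was the most abundant member, at 28, 19.8 and 19.8 CPM with the older label and at 54.3, 75.2 and 34.1 CPM with the younger one. Its difference was −1.27 ± 0.48 log2 (SE) with all libraries and −1.29 ± 0.57 (SE) without library 1, and its edgeR adjusted p was 0.162 and 0.506. For Mki67 the difference was −3.42 ± 0.74 log2 (SE, edgeR adjusted p = 0.0667) with all libraries, and −1.76 ± 0.47 (SE, adjusted p = 0.292) without library 1.

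The remaining lower genes by the rule have no shared list. Epb41l3, a protein of the membrane skeleton, was at 4.43, 3.26 and 3.03 CPM in the libraries labelled 32 months, against 33.2, 18.2 and 5.54 CPM in those labelled 3 months, from 133 and 1268 counts in all. Depp1, a target of FOXO factors, was at 46.4, 28.3 and 35.5 CPM with the older label and at 55.3, 117 and 120.0 CPM with the younger one, so here library 1 was the nearest to the older group. Fmn1, a formin that builds actin filaments, was at 10.1, 10.4 and 10.2 CPM at 32 months by label, against 24.5, 26.5 and 19.7 CPM at 3 months. Fmn1 thus varied little within the older label. Tnfrsf19, a receptor of the tumour necrosis factor family, was at 8.75, 5.25 and 3.24 CPM in the older-labelled libraries and at 16.8, 12.5 and 13.6 CPM in the younger-labelled ones. Hspa1b, a stress-induced HSP70 whose reads a near-identical neighbour may share, was at 4.38, 7.0 and 9.41 CPM with the older label, against 16, 11.2 and 29.8 CPM with the younger one.

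Proteins of the cytosolic ribosome showed small differences in 1 direction. Of 46 large-subunit genes tested (47 listed), 43 had negative differences, with a median of −0.18, and 22 did not overlap, all of them lower at 32 months by label, against 6.92% of all genes. Of 33 small-subunit genes, 31 were negative (median −0.16) and 16 did not overlap. With library size only they were −0.34 and −0.33, further from 0 by about the shift of all genes. Unlike the leukocyte lists these medians were no nearer to 0 without library 1 (−0.22 and −0.17). At an unadjusted p under 0.05, 7 large-subunit and 4 small-subunit genes were lower and 0 higher, against 12.1% of all genes lower, so by that count the shares were near the background. Rpl3, next to the catalytic centre of the large subunit, was at 133, 134 and 119 CPM in the libraries labelled 32 months, against 170, 176 and 189 CPM in those labelled 3 months (log2 difference −0.47 ± 0.14, SE, edgeR adjusted p = 0.092). Rps4x was at 139, 151 and 139 CPM with the older label and at 178, 186 and 193 CPM with the younger one, and DESeq2 called it with and without library 1 (adjusted p = 0.0064 and 0.037). The summed level of the large subunit was 4233, 4241 and 4051 CPM at 32 months by label, against 4658, 4604 and 5129 CPM at 3 months. The 12 other liver footprint libraries ran from 3775 to 5481 CPM, so both groups lay within their range. Ribosomal protein genes have many processed copies in the genome, which may take some of their reads. Translation factors, which work with the ribosome but are not part of it, had a median of 0.01 over 36 genes, 18 of them positive and 18 negative (median −0.14 with library size only).

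Mitochondrial genes lay the other way, with differences that shrank without library 1. All 37 complex I genes were positive, with a median of 0.34, and 0.11 without library 1, 9 were higher at an unadjusted p under 0.05, against 6.95% of all genes, and 0 without library 1. For 24 genes of complexes II to IV the medians were 0.32 and 0.09, and for 17 genes of ATP synthase 0.31 and 0.12. For 7 of the 13 mitochondrially encoded genes they were 0.35 and 0.14. At an unadjusted p under 0.05, 1 of the 24, 2 of the 17 and 0 of the 7 were higher, against 6.95% of all genes. Without overlap, 1, 1 and 0 were higher, against 7.05%, and 1 gene of ATP synthase was lower by both counts. Ndufa13, a subunit of complex I, was at 94.8, 78.8 and 87.1 CPM in the libraries labelled 32 months and at 49.9, 66.0 and 74.6 CPM in those labelled 3 months. Of 47 large-subunit genes of the mitochondrial ribosome tested (48 listed), 10 did not overlap, all higher at 32 months by label, against 7.05% of all genes. The median was 0.20 (0.05 without library 1). Of its 29 small-subunit genes, 2 were higher at an unadjusted p under 0.05 and 2 did not overlap. Their median was 0.24 (0.09 without library 1). Mrpl36 was at 22.6, 20.9 and 19.2 CPM with the older label, against 14.2, 13.3 and 15.2 CPM with the younger one, a log2 difference of 0.56 ± 0.13 (SE) with all libraries and 0.55 ± 0.15 (SE) without library 1. The sums of complex I were 2778, 2600 and 2607 CPM in the libraries labelled 32 months, against 1480 CPM in library 1 labelled 3 months and 2139 and 2753 CPM in libraries 2 and 3 of that label, so library 3 was inside the older-labelled range.

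**Figure D4:**
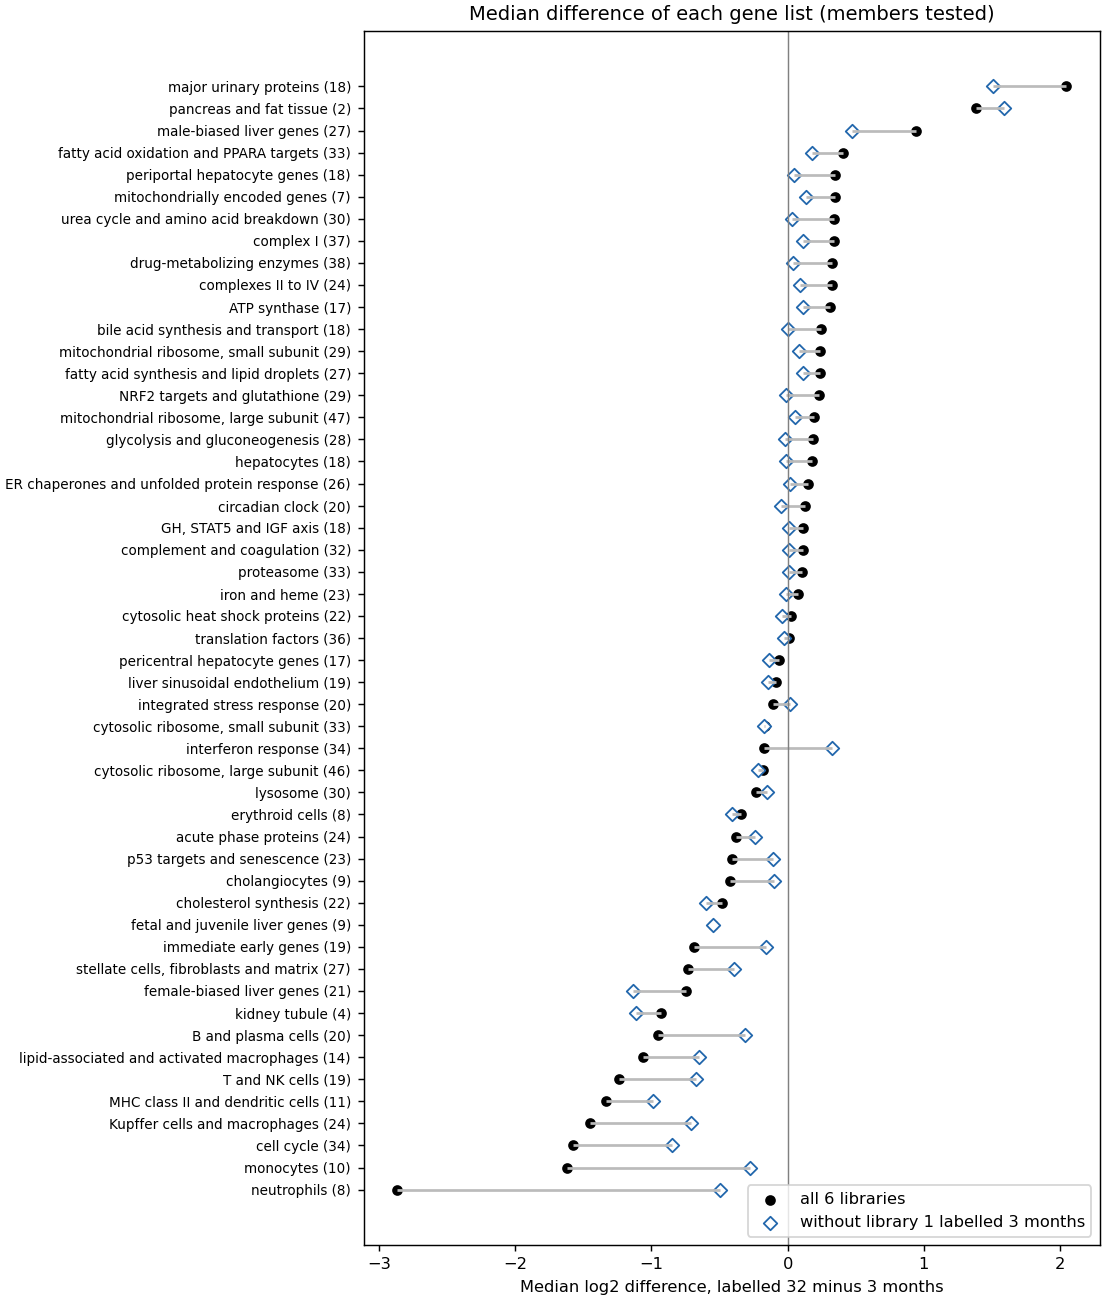
Median log2 difference (32 minus 3 months, by label) over the tested members of each of 51 gene lists, with all 6 libraries (filled points) and without library 1 labelled 3 months (open diamonds); the number of members tested stands beside each name. Without library 1, 39 of the 51 medians were smaller in size and 9 changed sign. Most lists stayed on their side of 0, the Mup, ribosomal protein, cholesterol and female-biased lists among them.

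Other hepatocyte functions had medians near 0 once library 1 was left out. Over 30 urea cycle and amino acid genes the median was 0.34, and 0.03 without it, and over 18 periportal genes it was 0.35 and 0.05. The 32 complement and coagulation genes had medians of 0.11 and 0.01 and the 33 proteasome genes 0.10 and 0.01, and with library size only the medians were −0.025 and −0.045. Interferon response genes had medians on opposite sides of 0, at −0.17 over 34 genes with all libraries and 0.33 without library 1. Acute phase proteins had a median of −0.38, and −0.24 without library 1, and Hamp, the iron hormone hepcidin, was at 683, 739 and 1043 CPM with the older label, against 231, 445 and 446 CPM with the younger one. Lgr5, a receptor of pericentral hepatocytes that amplifies Wnt signals, was at 5.2, 6.41 and 3.94 CPM in the libraries labelled 32 months and at 12.1, 10.6 and 9.66 CPM in those labelled 3 months, while the 17 pericentral genes as a list had a median of −0.06.

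Against all 6 ages by label, it was often the mean of the 3 months group that lay outside the others. Among the 959 genes that were higher without overlap, the mean of the libraries labelled 32 months was above every other age in 31.9%, and that of the libraries labelled 3 months was below every other age in 70.2%. Among the 942 lower ones, the mean of the libraries labelled 32 months was below every other age in 31.8%, and that of the 3 months label above every other age in 65.9%. Over all genes tested the 3 months mean was below every other age in 27.0% and above in 26.7%, and the 32 months mean was above in 18.1% and below in 16.4%. The choice of genes that differ between these 2 groups itself raises such shares, so they describe the genes and test nothing. The means of the 3 months label include its library 1, and these shares were not computed without it. Of the libraries of its label, library 1 was the farthest from the 32 months label in 56.7% of the 959 genes and in 75.5% of the 942.

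Single genes showed this in different ways. Dio1 averaged 138, 36.2, 228, 115, 171 and 110 CPM along the labels of 1, 3, 11, 20, 26 and finally 32 months, so the 3 months group alone was low. Mup17 averaged 1009, 8.36, 18.4, 322, 483 and 257 CPM in the same sequence, so the libraries titled 10m were as low as those labelled 3 months, and Elovl3 had the same shape at 182, 18.6, 8.28, 117, 64.8 and 108 CPM. Tlr4 averaged 4.25, 18.1, 5.74, 4.02, 6.29 and 3.68 CPM, with the 3 months group alone high. P4ha1 averaged 9.90, 32.2, 13.8, 18.4, 21.3 and 14.1 CPM, with the 3 months group again the highest.

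**Figure D5:**
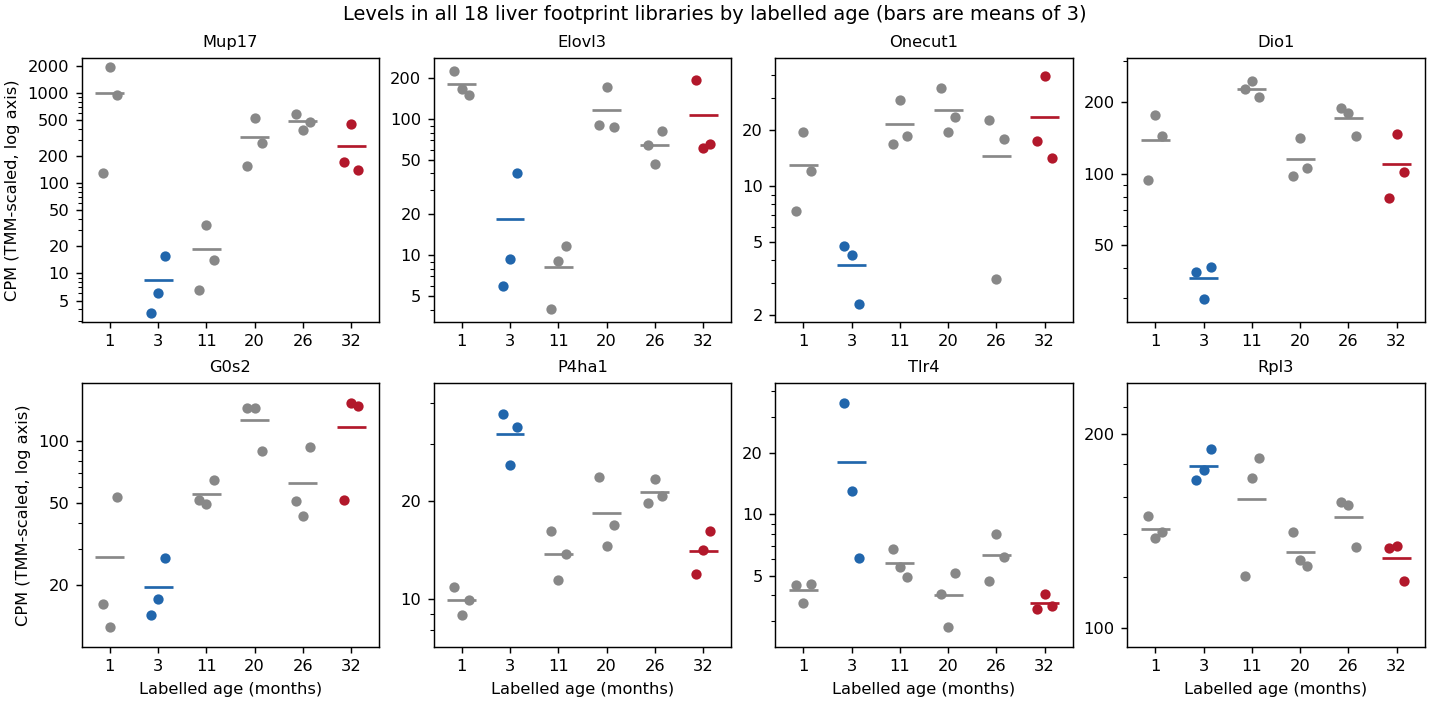
TMM-scaled CPM (log axis) of 8 genes in all 18 liver footprint libraries by labelled age in months, 1 point per library with bars at the means of 3. In Dio1 and P4ha1 the libraries labelled 3 months lie apart from those of every other age. In Tlr4 this holds for libraries 1 and 2 of that label and not for library 3. In Mup17 and Elovl3 the libraries labelled 11 months are low as well as those labelled 3 months.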

How the data were processed

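Footprints came from liver lysates digested with RNase T1 and S7, per the labels' protocols. Values are whole-number read counts per gene, deposited by the authors without normalization. The submitters' processing notes list cutadapt 1.14, STAR 2.5.3 and mm10, and the counting tool and annotation are not given in the sources used here. Of 50222 gene identifiers, 49998 were matched to symbols. Columns of the 38 other libraries were not used.

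Libraries were grouped by tissue, assay and age label. Genes passing filterByExpr (minimum count 10) in the 18 liver footprint libraries, 13608 of them with 99.8 to 99.9% of counts, were scaled by TMM (factors 0.822 to 1.3, highest in library 1 labelled 3 months) and tested with edgeR 4.0.16 (quasi-likelihood, robust, two-sided, age group only, Benjamini-Hochberg at 0.05) in R 4.3.3. The SE of a log2 difference is its size divided by the square root of F. Each leave-one-out fit kept the same genes. With 3 libraries a group, permutation p-values cannot go below 0.1, so none is given for single genes. DESeq2 1.42.0 and other scalings, filters and sets of libraries were alternatives. The code was tested on simulated data.

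The 51 gene lists (1171 genes, 1107 tested) and the members of the comparison were chosen with earlier results of these data known. Genes are named by the rule in the report and, in each list, as the 3 tested members of smallest unadjusted p whose mean reaches 1 CPM, plus the member of highest level. Predicted gene models and antibody and T cell receptor segments, 17 of the eligible genes, are not named. Lists are described by counts and medians without a test. Mup, Serpina1, Cyp2c, Slc22a and ribosomal protein genes have near copies, so counts may be split among them. RNA libraries were not used, so footprints were not set against transcript levels. Some genes that these rules name are not reported here.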

Additional observations from a re-analysis of the deposited data

How the results depend on the processing

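edgeR called 0 genes with all libraries (2596 at an unadjusted p under 0.05), and also with RLE scaling, with library size only, with a minimum count of 50 (10691 genes), with only the 6 compared libraries and with libraries labelled 32 months summed in pairs to stand for 2 animals. DESeq2 called 831 genes, edgeR with no filter on low counts (26134 genes) called 113, and DESeq2 without replicate 1 labelled 3 months, an alternative chosen after seeing the data, called 57. Leaving out 1 library gave 0 to 2004 edgeR calls: 2004 without replicate 3 labelled 3 months (615 higher, 1389 lower), 39 without replicate 1 labelled 32 months, 1 without replicate 2 labelled 3 months and 0 without each of the others; the cause was not tested. Scaling by library size only put the median of all genes at −0.154 log2. With the replicate number as a block, edgeR called 0 genes (2357 at an unadjusted p under 0.05, smallest adjusted p 0.0618); same-numbered libraries of the 2 groups had correlations of deviations of 0.023, −0.15 and −0.214, so the numbers do not pair them. Of the named genes, 3 log2 values reversed: Arntl was at −0.25 without replicate 1 labelled 32 months, and mt-Co1 at −0.0073 (edgeR) and −0.014 (DESeq2) without replicate 1 labelled 3 months. Over the left-out libraries Arntl ran from −0.25 to 1.82 and mt-Co1 from −0.0073 to 0.53. In 343 other cases a gene named by the rules, or called by DESeq2 without replicate 1 labelled 3 months, passed the threshold under an alternative, most of them under DESeq2 or without replicate 3 labelled 3 months. List medians differed by more than the spread between libraries in 49 cases and by less in 868, and the kidney list had no member left at a minimum count of 50. Genes of a few CPM, such as Mki67 or Timd4, rest on few reads in the older-labelled libraries, which limits their folds.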

Other observations

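DESeq2 without library 1 labelled 3 months called 57 genes, and those below were picked from them after their values had been seen. Sec24d, a coat protein of vesicles that leave the endoplasmic reticulum, was at 118, 116 and 115 CPM in the libraries labelled 32 months, against 63.6, 73.6 and 86.3 CPM in those labelled 3 months. Cebpa, a transcription factor of hepatocytes and of the myeloid lineage, was at 649, 554 and 471 CPM with the older label and at 167, 294 and 390.2 CPM with the younger one (log2 difference 0.98 ± 0.23, SE, edgeR adjusted p = 0.0667). L3mbtl2, a reader of chromatin, was at 24, 24.7 and 24.4 CPM at 32 months by label, against 16.4, 15.8 and 16.9 CPM at 3 months. Bach2, a repressor best known from lymphocytes, was at 11.2, 11.8 and 12.4 CPM with the older label and at 7.07, 5.52 and 4.67 CPM with the younger one, so it did not follow the lymphocyte markers. Akap12, a scaffold of protein kinase A, lay the other way, at 4.32, 4.20 and 4.05 CPM in the libraries labelled 32 months, against 7.02, 7.95 and 8.72 CPM in those labelled 3 months. Cxcl1, a chemokine for neutrophils, was at 3.19, 1.63 and 3.03 CPM with the older label and at 12.4, 23.2 and 4.86 CPM with the younger one.

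Within the 32 months label, library 1 differed from libraries 2 and 3 in genes of fasting and of the daily clock. Pck1, which starts glucose synthesis, was at 1435 CPM in library 1, and at 6461 and 6338 CPM in libraries 2 and 3. Cebpb was at 104, 429 and 491 CPM in the same order of libraries and Tef, a clock output factor, at 101, 285 and 244 CPM. Arntl, the core clock factor BMAL1, was the other way round, at 13.1, 2.80 and 2.43 CPM. The libraries labelled 3 months had Pck1 at 3227, 4581 and 7076 CPM and Arntl at 5.74, 0.925 and 2.74 CPM. The labels give no time of day or feeding state, and their part in these values was not tested.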
